A study of Homo sapiens with 4 samples.

Results

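The chromatin loops of chromosome 6 between 25.5 and 34.5 Mb (hg38), an interval that spans the large histone gene cluster and the major histocompatibility complex (MHC), numbered 118 of the 41846 different loops listed in 4 SMC1 HiChIP libraries. A loop was taken when both of its 5 kb anchors lay inside the interval, in any library. The cells were GM12878, a B lymphoblastoid line made by Epstein-Barr virus transformation. SMC1 is a subunit of cohesin, and HiChIP counts ligated pairs of DNA ends in chromatin precipitated with its antibody. One library was made for each of 4 groups, each exposed for 18 h: aphidicolin (APH) at 0.4 µM, its solvent DMSO, hydroxyurea (HU) at 0.2 mM, and its solvent H2O. APH blocks replicative DNA polymerases and HU lowers the supply of deoxynucleotides, so the design sets cells under mild replication stress against cells given the solvent alone. The sample titles name another lymphoblastoid line, HG00731, while the source, cell line and library fields name GM12878, the name used here. No group had a replicate, so no test between groups was possible, and the values below compare libraries.

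Cohesin is a ring-shaped complex that extrudes DNA into loops, which often end where the complex meets the DNA-binding protein CTCF. The replication-dependent histone genes of chromosome 6 lie in clusters, are transcribed in S phase, and are interspersed with many transfer RNA genes. The MHC that follows them holds the HLA genes, whose products present peptides to T cells, along with complement, cytokine and antigen-processing genes. Class II genes and the antigen-processing genes are active in B cells.

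The label of the interval held for the histone genes and not for the MHC. No list held an anchor between chr6:28350001-33505000, a stretch of 5.155 Mb with 174 of the 277 protein-coding genes of the interval. Listed loops span at most 1000 kb, so none could cross it. In all, 51 loops lay to its left, from the solute carrier gene SLC17A1 to the zinc finger genes, and 67 lay to its right, up to the ribosomal protein gene RPS10. The loops are therefore described as those of the histone gene domain and of the stretch from BAK1 to RPS10. The lists hold called loops only, and an unlisted pair is not a measured 0. Whether bins there were masked or filtered for mappability before calling is not recorded in the lists and was not tested, so the stretch without anchors does not show that contacts were lacking. Its rank and the loops per gene given below carry the same limit.

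Promoter sequences at the anchors on which the results below turn are shown here, from 250 bases before to 50 after the RefSeq transcription start (GRCh38.p14), 5′ to 3′ on the strand of the gene. H1-4 and H2BC5 lie in the anchor of the histone loop that was listed under both drugs and in neither solvent, UQCC2 in an anchor of a loop with a higher count in HU, IP6K3 in an anchor of a 15 kb loop listed in APH and HU alone, and SMIM29 and NUDT3 in the anchors with the most loops. Capitals mark the letters of the CCAAT box, searched as CCAAT, and of the TATA box, searched as TATAAA. Each was searched on both strands and so is also seen here as its reverse complement. A match counted anywhere in the window, so it is not shown to be a working box. In the printed windows no match of one overlaps a match of the other.
H1-4 (chr6:26156079-26156378, plus strand): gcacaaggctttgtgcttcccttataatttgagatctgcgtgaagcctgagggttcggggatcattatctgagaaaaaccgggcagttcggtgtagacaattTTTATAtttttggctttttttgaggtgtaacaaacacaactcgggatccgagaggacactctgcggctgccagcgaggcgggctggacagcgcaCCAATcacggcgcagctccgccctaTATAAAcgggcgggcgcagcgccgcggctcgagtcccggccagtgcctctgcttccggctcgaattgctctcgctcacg
H2BC5 (chr6:26157871-26158170, plus strand): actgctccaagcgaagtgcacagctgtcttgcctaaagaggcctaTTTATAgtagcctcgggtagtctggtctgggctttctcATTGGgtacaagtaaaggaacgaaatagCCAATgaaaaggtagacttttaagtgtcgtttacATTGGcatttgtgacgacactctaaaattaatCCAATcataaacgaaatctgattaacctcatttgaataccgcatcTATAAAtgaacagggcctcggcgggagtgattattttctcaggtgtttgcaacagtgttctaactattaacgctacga
UQCC2 (chr6:33711651-33711950, minus strand): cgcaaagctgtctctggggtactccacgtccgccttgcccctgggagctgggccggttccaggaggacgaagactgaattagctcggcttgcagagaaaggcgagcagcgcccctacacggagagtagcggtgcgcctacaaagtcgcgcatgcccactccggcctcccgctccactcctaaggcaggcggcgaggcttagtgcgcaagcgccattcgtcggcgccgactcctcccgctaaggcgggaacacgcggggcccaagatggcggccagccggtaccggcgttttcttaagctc
IP6K3 (chr6:33746856-33747155, minus strand): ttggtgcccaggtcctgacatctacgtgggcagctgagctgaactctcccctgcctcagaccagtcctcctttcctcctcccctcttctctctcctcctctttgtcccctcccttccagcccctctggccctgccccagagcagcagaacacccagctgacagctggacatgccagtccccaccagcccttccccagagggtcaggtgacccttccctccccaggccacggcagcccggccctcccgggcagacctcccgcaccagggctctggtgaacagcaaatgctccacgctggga
SMIM29 (chr6:34248957-34249256, minus strand): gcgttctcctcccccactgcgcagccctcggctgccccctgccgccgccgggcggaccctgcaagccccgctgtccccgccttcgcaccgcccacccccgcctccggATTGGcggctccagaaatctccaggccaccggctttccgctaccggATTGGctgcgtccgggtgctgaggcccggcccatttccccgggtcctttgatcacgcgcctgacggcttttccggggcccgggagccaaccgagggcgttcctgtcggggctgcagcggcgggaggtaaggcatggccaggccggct
NUDT3 (chr6:34392620-34392919, minus strand): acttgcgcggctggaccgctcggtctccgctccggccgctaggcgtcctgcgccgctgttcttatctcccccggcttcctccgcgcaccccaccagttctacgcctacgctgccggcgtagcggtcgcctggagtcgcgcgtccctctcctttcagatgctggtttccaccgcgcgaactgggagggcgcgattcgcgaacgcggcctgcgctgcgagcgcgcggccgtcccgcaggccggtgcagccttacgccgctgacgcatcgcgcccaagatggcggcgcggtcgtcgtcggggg
Among 35116 RefSeq promoters of this length, 34.6% held CCAAT and 11.5% held TATAAA on either strand. Of 31 protein-coding genes of the interval whose start lay in an anchor, 11 were histone genes, of which 10 held CCAAT and 9 held TATAAA on either strand. In H2BC4, H2BC14 and H2BC17 TATAAA was seen only on the strand opposite to the gene. The windows of H2BC4 and H2AC6 overlap, as do those of H2AC15 and H2BC15 and those of H2AC17 and H2BC17. Matches in an overlap count for both genes, so the 11 windows are not separate sequences. The windows of UQCC2, IP6K3 and NUDT3 printed here held neither run of letters. The sequence of the anchors outside promoters, CTCF motifs included, was not analysed here.

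The interval took a like share of every list. It held 77 loops in the APH library and 56 in the DMSO library, 60 in the HU library and 64 in the H2O library, out of 27395, 17660, 21448 and 22446 loops in the same order. These are 0.281% (95% exact binomial interval 0.222 to 0.351) of the APH list, 0.317% (0.240 to 0.412) of the DMSO list, 0.280% (0.214 to 0.360) of the HU list and 0.285% (0.220 to 0.364) of the H2O list. The 4 intervals overlapped. Contact counts over these loops summed to 2180 in APH and 1409 in DMSO, and to 1667 in HU and 1585 in H2O, with single loops between 12 and 104 counts. The sums move with how much was called in a library, and total read depth is unknown. Intervals cover counting error only, and since reads amplified by PCR are not independent molecules they may be too narrow.

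Among the 118 loops, 30 (25.4%) were listed in all 4 libraries, against 22.8% of all loops. A further 55 were listed in 1 library, namely 18 in APH, 7 in DMSO, 14 in HU and 16 in H2O. Loops that both drug lists held and both solvent lists lacked numbered 7, or 5.93%, close to the 5.69% of all loops. The reverse pattern, both solvents and neither drug, was seen for 1 loop (0.847% against 2.03% of all loops), a 65 kb loop into BAK1, which encodes a pro-apoptotic BCL2 family protein, with 20 counts in DMSO and 16 in H2O. These shares lie near those of all loops.

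Spans ran from 10 to 630 kb with a median of 77.5 kb. Loops under 100 kb made up 63.6% of the interval's APH loops (51.9 to 74.3) and 58.9% of its DMSO loops (45.0 to 71.9). They made up 66.7% of its HU loops (53.3 to 78.3) and 51.6% of its H2O loops (38.7 to 64.2). In the whole lists the shares were 51.3% in APH, 45.3% in DMSO, 51.6% in HU and 45.6% in H2O. Both drug libraries were above their solvent in the interval as in the whole lists, but at this number of loops the intervals overlapped in both pairs.

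**Figure D1:**
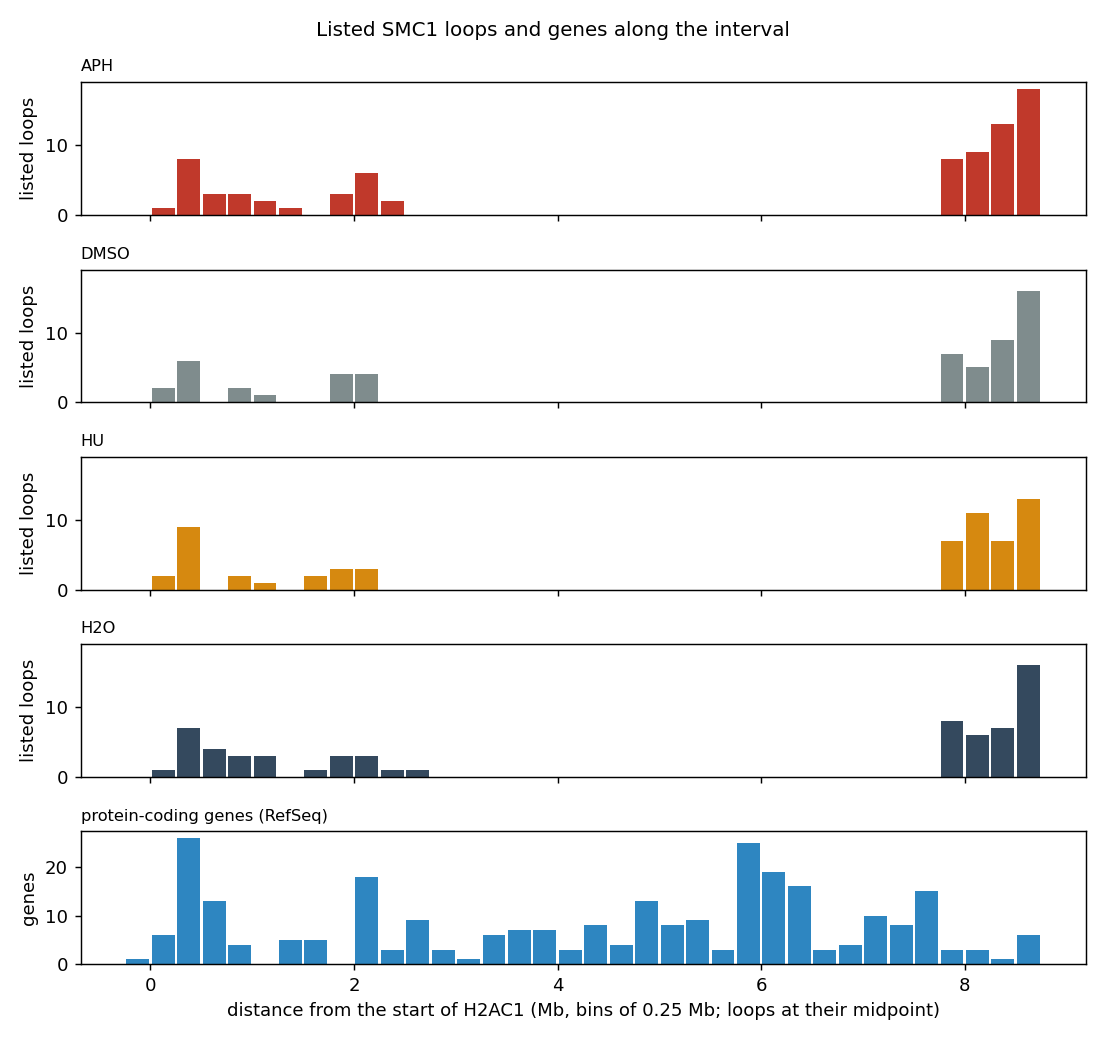
Listed loops along the interval, counted in bins of 0.25 Mb by the midpoint of each loop, in 1 panel per library (APH, DMSO, HU, H2O from top to bottom) with protein-coding genes in the lowest panel and the x axis as the distance in Mb from the start of the histone gene H2AC1. Loops lie at both ends in every library, while the 5.155 Mb stretch between them, with 174 protein-coding genes, holds none.

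The stretch without anchors took in the MHC proper. All 13 HLA class II genes, 8 of 9 class I and class I-like genes, all 5 antigen-processing genes (TAP1, TAP2, TAPBP, PSMB8 and PSMB9), all 3 TNF family genes and all 14 complement and class III genes lay in it. The remaining class I-like gene was HFE, which regulates iron uptake and lies among the histone genes, and it had listed loops. Of 16 olfactory receptor genes 14 lay in the stretch, and none of the 16 had a loop. Of 9 TRIM genes 8 lay in it, and the one outside, the ubiquitin ligase gene TRIM38, had loops. Ranked by protein-coding genes, the stretch came 1st of 414 anchor-free stretches over 1 Mb in the genome. The next was a stretch of chromosome 19 of 2.545 Mb with 77 genes. The interval as a whole had 0.426 loops per protein-coding gene, against 2.10 over the genome, and 1.15 when the genes of the stretch were left out.

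The rule cut few loops at its edges. On the left, the first loop inside joined SLC17A1 to a bin 155 kb away with 20 counts in APH, 15 in DMSO and 16 in HU, and the last loop before the interval had 13 counts in APH and 15 in DMSO. On the right, the last loop inside had 16 counts in APH and 18 in HU, and the first loop after it had 26 in APH, 18 in DMSO and 18 in HU. Only 4 loops had 1 anchor inside and 1 outside.

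The histone domain, from the first to the last replication-dependent histone gene, held 47 loops and 74 protein-coding genes. They were listed 27 times in APH, 19 in DMSO, 22 in HU and 25 in H2O, and 10 were shared by all libraries. Few of these loops ended on a histone gene. Of 55 histone genes 14 had a loop in any list, through 9 loops of 20 to 75 kb, and only H4C3, a histone H4 gene, had a loop listed in all 4 libraries. The 9 loops were listed 6 times in APH, 3 in DMSO, 4 in HU and 3 in H2O, with summed counts of 160, 79, 112 and 76 in the same order. An unlisted loop adds nothing to a sum. Over the whole genome the APH list was also the longest and the DMSO list the shortest, while the HU list was shorter than the H2O list. Whether these values of 9 loops go beyond list length was not tested, so they are not read as a result about histone genes. In 4 of the 9, histone genes lay in both anchors.

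The loop of the domain with the highest counts ended on HFE. The 30 kb loop from chr6:26065001-26070000 to the bin at chr6:26095001-26100000 in HFE had 104 counts in APH and 67 in DMSO, and 87 in HU and 86 in H2O. It was the highest of the whole interval in mean scaled count, that is, the count divided by the library's total over the 9529 loops shared by all libraries. Its count was 13.1 and 10.4 times the expected count in APH and DMSO, and 12.7 and 11.3 times in HU and H2O. On the log2 scale the scaled count was 0.31 (-0.15 to 0.77) higher in APH than in DMSO and differed by 0.03 (-0.41 to 0.48) between HU and H2O, so both intervals included 0.

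The same left anchor also met the next HFE bin and H4C3. The 25 kb loop to HFE had 40 counts in APH and 35 in DMSO, and 48 in HU and 60 in H2O. The 35 kb loop to H4C3 had 30 counts in APH and 26 in DMSO, and 20 in HU and 41 in H2O. HU was the lowest library and H2O the highest for the H4C3 loop, with a log2 ratio of HU to H2O of -1.02 (-1.87 to -0.22). The 2 solvents themselves differed here, with H2O over DMSO at 0.54 (-0.20 to 1.31), and HU set against DMSO gave -0.48. With the deposited expected count divided out, the ratio of HU to H2O was -0.59 (-1.44 to 0.21). Over all 4 shared loops into HFE or H4C3, the log2 ratio was 0.07 (-0.24 to 0.39) for APH over DMSO and -0.23 (-0.52 to 0.07) for HU over H2O. It was 0.37 (0.06 to 0.68) between H2O and DMSO, 2 libraries without drug.

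By count, a histone loop was the highest of the 7 loops listed under both drugs and in neither solvent. The loop from chr6:26125001-26130000 to chr6:26155001-26160000, the bin with the linker histone gene H1-4 and the histone H2B gene H2BC5, had 43 counts in APH and 45 in HU and was listed in neither solvent. These were 2.59 and 3.00 times its expected count in APH and HU. By that measure the loop was weak, since the medians of all listed loops were 4.98 in APH and 5.22 in HU. Of 2380 loops of the genome with the same pattern, 42 had a lower count of the pair at least this high, itself included. Since the lists begin at 2.00 times the expected count, a pair just under that bound in a solvent library would be unlisted, so no fold is given. A second histone loop, between H4C3 and the bin of H2BC4 and H2AC6 (20 kb), had 32 counts in HU and was listed nowhere else.

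In the last clusters of the domain, from H2BC13 to H2BC17, 5 loops were listed, 3 times in APH, 2 in DMSO, 0 in HU and 1 in H2O, and none was shared. Loops from H2BC14 and from H4C11 to the bin of H3C12, H2AC17 and H2BC17 had 21 and 17 counts in APH. A loop from H4C11 to H3C11 and H4C13 had 19 counts in DMSO, and a loop on H2AC15 and H2BC15 had 33 in APH and 34 in DMSO. Each of the 5 loops was in 1 or 2 lists, and the H2AC15 loop, the only one listed in both libraries of a pair, had a log2 ratio of -0.37 (-1.11 to 0.36) for APH over DMSO.

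**Figure D2:**
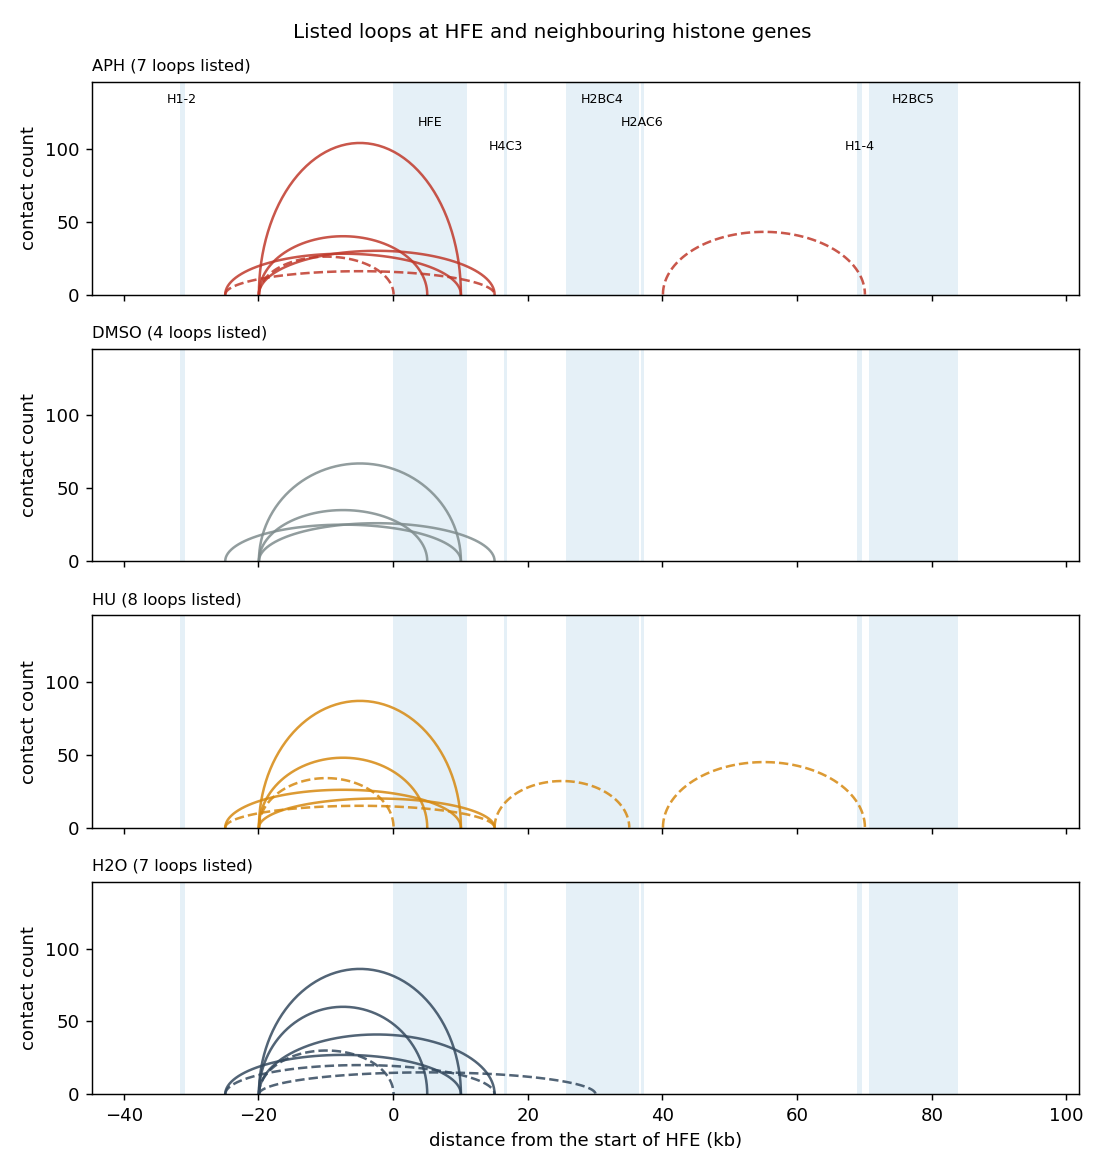
Listed loops at HFE and the neighbouring histone genes as arcs, in 1 panel per library (APH, DMSO, HU, H2O from top to bottom), against the distance in kb from the start of HFE, with the contact count as the height, solid arcs for loops listed in all 4 libraries, dashed arcs for the others and shading for genes. The tallest arc, into HFE, has 104, 67, 87 and 86 counts in that order, and the dashed arc into H1-4 appears in APH and HU alone.

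Many of the domain's anchors held transfer RNA genes, which RNA polymerase III transcribes. The interval holds 144 of the 465 transfer RNA genes in the RefSeq table, and 17 of its 121 anchor bins (14.0%) held 1 or more, against 84 of 38746 bins (0.217%) over all lists. The share of all bins of the interval that hold such a gene was not computed, so these values do not show that anchors favour them. The 17 bins gave 22 loops, 5 of them shared. Counts over the 5 summed to 208 in APH and 154 in DMSO, and to 183 in HU and 164 in H2O. The log2 ratios were 0.11 (-0.20 to 0.42) for APH over DMSO and 0.17 (-0.14 to 0.49) for HU over H2O, and both intervals included 0. The strongest was a 25 kb loop to ABT1, which encodes an activator of basal transcription, with 63 counts in APH and 52 in DMSO, and 61 in HU and 47 in H2O.

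The longest shared loop also lay here. It joined chr6:26605001-26610000, beside ABT1, to chr6:27075001-27080000, 470 kb away, with 49 counts in APH and 50 in DMSO, and 38 in HU and 34 in H2O. It had the highest ratio of observed to expected count of the interval in every library, 16.4 in APH and 21.5 in DMSO, and 14.8 in HU and 13.8 in H2O. The log2 ratio was -0.36 (-0.96 to 0.24) for APH over DMSO and 0.18 (-0.53 to 0.89) for HU over H2O. The solvents differed by more, at -0.67 (-1.35 to -0.02) for H2O over DMSO.

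A pair of loops that share the anchor at chr6:27770001-27775000 did not move together. Their right anchors are adjoining bins, each with a transfer RNA gene. The 20 kb loop had 60 counts in APH and 31 in DMSO, and 45 in HU and 40 in H2O, with a log2 ratio of 0.62 (-0.02 to 1.30) for APH over DMSO. The 25 kb loop had 18 counts in APH and 28 in DMSO, and 18 in HU and 26 in H2O. Its log2 ratios were -0.97 (-1.91 to -0.06) for APH over DMSO and -0.51 (-1.47 to 0.41) for HU over H2O.

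Over the 10 shared loops of the histone domain the pooled ratios were small. The pooled log2 ratio was 0.03 (-0.17 to 0.24) for APH over DMSO, -0.02 (-0.22 to 0.18) for HU over H2O and 0.09 (-0.12 to 0.30) for H2O over DMSO. All 3 intervals included 0. With libraries scaled by all their listed loops, APH over DMSO was -0.34 (-0.54 to -0.14), and with the expected count divided out H2O over DMSO was -0.21 (-0.42 to -0.01), so these 2 values depended on the scaling.

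Among the loops that were not shared, some ended on zinc finger and butyrophilin genes. Loops were listed at 7 of the 18 zinc finger genes of the interval (ZNF391, ZNF184, ZKSCAN8, ZSCAN9, ZKSCAN4, ZSCAN31 and ZKSCAN3), each loop with 18 counts or fewer and in 1 list. Of the 7 butyrophilin genes, which encode immunoglobulin-like membrane proteins, BTN2A2 and BTN3A1 shared 1 loop of 10 kb with 28 counts in H2O alone. At TRIM38 a 30 kb loop within the gene had 38 counts in APH, 23 in DMSO and 26 in HU, and was not listed in H2O.

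To the right of the stretch without anchors, 67 loops lay in 0.995 Mb with 14 protein-coding genes. They were listed 48 times in APH, 37 in DMSO, 38 in HU and 37 in H2O, and 20 were shared. The pooled log2 ratio over the 20 was 0.19 (0.04 to 0.35) for APH over DMSO and 0.21 (0.05 to 0.37) for HU over H2O, against -0.04 (-0.20 to 0.13) for H2O over DMSO. Without the loops on IP6K3, a choice made after seeing the data, the ratios were 0.13 (-0.03 to 0.30) for APH over DMSO and 0.09 (-0.08 to 0.27) for HU over H2O, so both intervals came to include 0. The interval for APH over DMSO also included 0 with at least 24 counts, at 0.15 (-0.06 to 0.36), over loops listed in both libraries, at 0.08 (-0.06 to 0.21), and with the expected count divided out, at 0.12 (-0.03 to 0.28). The ratio for APH turned to -0.18 when libraries were scaled by all their listed loops.

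IP6K3 was the gene with the clearest difference under the drugs. It encodes an inositol hexakisphosphate kinase, which makes inositol pyrophosphates. The 20 kb loop inside the gene, from chr6:33740001-33745000 to chr6:33760001-33765000, had 66 counts in APH and 24 in DMSO, and 74 in HU and 42 in H2O. Its right anchor overlaps the gene in the RefSeq table and lies upstream of the start whose promoter is printed above. Both drug libraries were higher than both solvents, DMSO was lowest and the solvents themselves differed. The log2 ratio was 1.13 (0.44 to 1.87) for APH over DMSO and 0.83 (0.27 to 1.42) for HU over H2O, beside 0.69 (-0.07 to 1.48) for H2O over DMSO. It was the only one of the 30 shared loops that was at least 1.5-fold higher with an interval excluding 1 in both comparisons, beside 0.462% of all shared loops (2.28% for APH over DMSO and 3.41% for HU over H2O, each alone). With the deposited expected count divided out, the loop was at 0.81 (0.12 to 1.55) for APH over DMSO and 0.47 (-0.10 to 1.05) for HU over H2O, so the joint call was lost.

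The right anchor of that loop also met UQCC2, which encodes an assembly factor of mitochondrial respiratory complex III. The 50 kb loop from the bin of the UQCC2 start had 30 counts in APH and 22 in DMSO, and 44 in HU and 18 in H2O. HU was the highest library, with a log2 ratio of 1.31 (0.48 to 2.18) over H2O, while APH over DMSO was 0.12 (-0.72 to 0.98). The count of this loop was 5.79 times the expected count in HU and 3.78 times in H2O. With the expected count divided out, no shared loop of the interval, this one included, was called for HU over H2O. Summed over its 2 shared loops, IP6K3 had 96 counts in APH and 46 in DMSO, and 118 in HU and 60 in H2O. The log2 ratios were 0.73 (0.21 to 1.27) for APH over DMSO and 0.99 (0.53 to 1.47) for HU over H2O, and 0.27 (-0.31 to 0.85) between the solvents. With the solvents exchanged they were 0.47 (-0.01 to 0.96) for APH over H2O and 1.26 for HU over DMSO. With the deposited expected count divided out they were 0.43 (-0.10 to 0.96) for APH over DMSO and 0.56 for HU over H2O, so the higher value under HU held and that under APH came to include 0.

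Other loops were also listed near IP6K3. Loops whose left anchor lay between the UQCC2 start and IP6K3 numbered 11, listed 6 times in APH, 2 in DMSO, 8 in HU and 3 in H2O. A 15 kb loop from the bin of the IP6K3 start printed above to the same right anchor had 24 counts in APH and 26 in HU, and a 45 kb loop into that anchor had 15 in APH and 16 in HU. Neither was listed in a solvent library, a pattern that 5.69% of all loops had. Over the whole genome the APH list was the longest and the DMSO list the shortest. There the HU list was shorter than the H2O list, while here HU had more listings than H2O. Whether these list counts go beyond list length was not tested, so they are not read as a result about IP6K3. UQCC2, over its 2 shared loops, had 70 counts in APH and 57 in DMSO, and 79 in HU and 43 in H2O. Its log2 ratio was -0.03 (-0.56 to 0.50) for APH over DMSO and 0.89 (0.34 to 1.46) for HU over H2O, and 0.37 (-0.14 to 0.89) when HU was set against DMSO. One of its 2 loops is also counted for IP6K3.

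**Figure D3:**
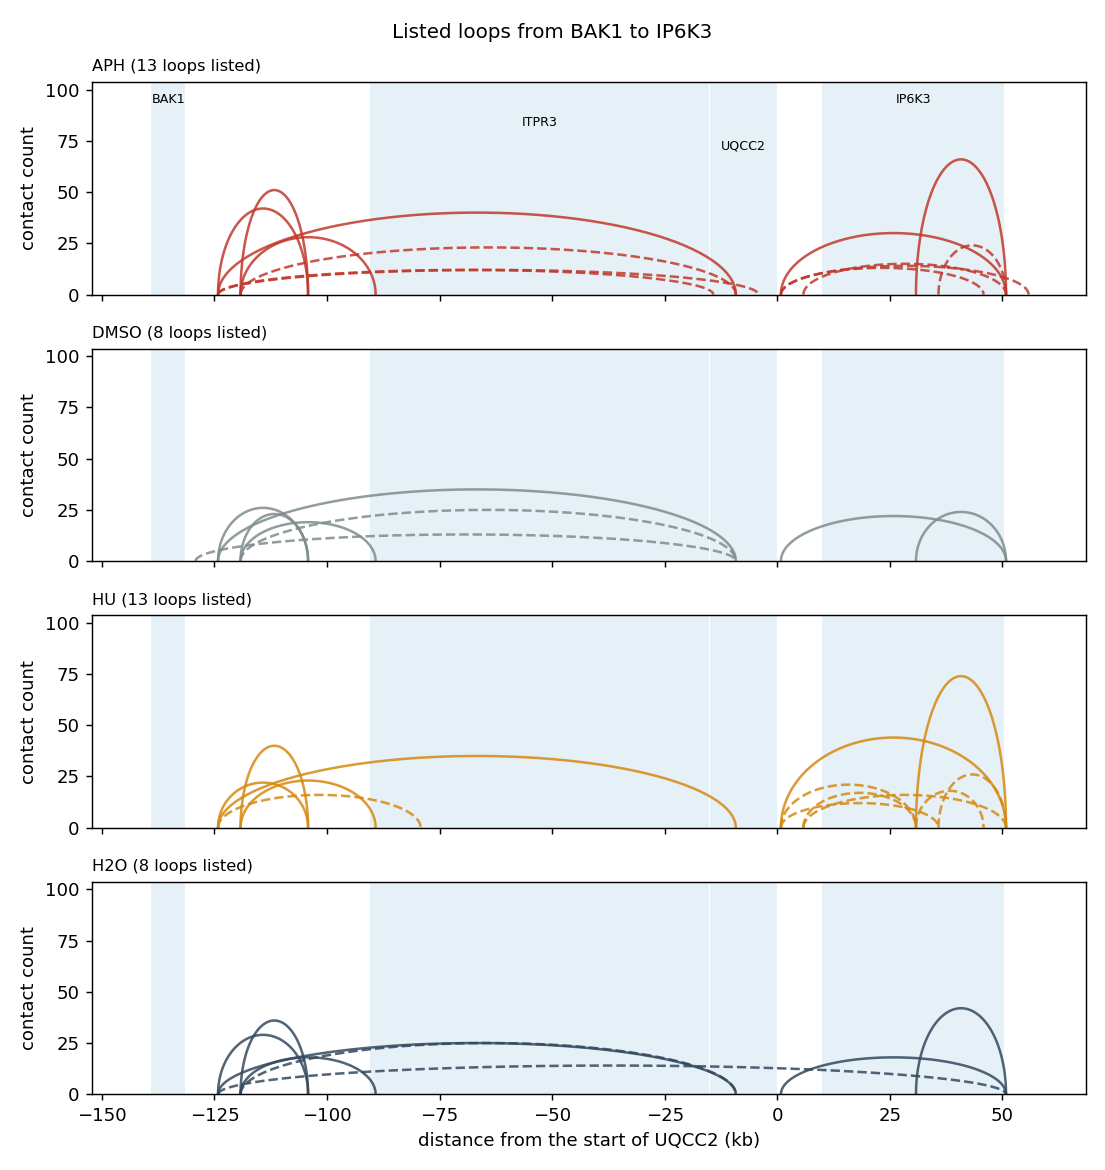
Listed loops from BAK1 to IP6K3 as arcs, in 1 panel per library (APH, DMSO, HU, H2O from top to bottom), against the distance in kb from the start of UQCC2, with the contact count as the height, solid arcs for loops listed in all 4 libraries, dashed arcs for the others and shading for genes. The 20 kb arc inside IP6K3 reaches 66 counts in APH and 74 in HU, against 24 in DMSO and 42 in H2O. Dashed arcs end on IP6K3 in both drug libraries, and a dashed arc of 14 counts ends on its right anchor in H2O.

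Between BAK1 and ITPR3, which encodes an inositol trisphosphate receptor that releases calcium, 14 loops were listed and 4 shared. A 15 kb loop from chr6:33590001-33595000, in the non-coding gene LINC00336, had 51 counts in APH and 23 in DMSO, and 40 in HU and 36 in H2O. DMSO was the low library, and the log2 ratio was 0.82 (0.08 to 1.60) for APH over DMSO and 0.17 (-0.52 to 0.86) for HU over H2O. The count of this loop was 4.03 times the expected count in APH and 2.78 times in DMSO, a smaller gap than that of the scaled counts. In HU and H2O it was 3.49 and 3.93 times. The loop into ITPR3 had 28 counts in APH and 19 in DMSO, and 23 in HU and 18 in H2O, with both intervals including 0. Over the 4 shared loops the log2 ratios were 0.32 (-0.05 to 0.69) and 0.17 (-0.22 to 0.56) in the same order.

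At GRM4, a metabotropic glutamate receptor gene known for its expression in brain, 2 shared loops had anchors. The 95 kb loop inside the gene had 39 counts in APH and 22 in DMSO, and 30 in HU and 22 in H2O. The 260 kb loop from a bin beside LEMD2, which encodes an inner nuclear membrane protein, had 29 counts in APH and 14 in DMSO, and 21 in HU and 21 in H2O. Summed, the log2 ratio was 0.59 (-0.01 to 1.21) for APH over DMSO and 0.26 (-0.35 to 0.88) for HU over H2O, so neither interval excluded 0. The value for APH over DMSO depended on the setting. It was 0.10 (-0.34 to 0.55) over loops listed in both libraries and 0.64 (0.04 to 1.27) with the expected count divided out. A 255 kb loop from the adjoining LEMD2 bin to the same GRM4 anchor, unlisted in HU, had 20 counts in APH, 28 in DMSO and 16 in H2O.

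The densest anchors of the interval lay around HMGA1, which encodes an architectural chromatin protein that binds AT-rich DNA. The bin chr6:34245001-34250000, with the end of HMGA1 and the start of SMIM29, a small membrane protein gene, took part in 12 loops of 50 to 210 kb. Of its partners 2 lay to the left and 10 to the right. These loops were listed 12 times in APH and 9 in DMSO, and 9 times in HU and 10 in H2O. The bin of the NUDT3 start, chr6:34390001-34395000, took part in 11 loops of 75 to 155 kb, and all of its partners lay to the left. NUDT3 encodes a Nudix hydrolase that acts on inositol pyrophosphates, the products of kinases such as IP6K3.

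The loop between these 2 bins, 145 kb long, was the second highest of the interval in mean scaled count. It had 101 counts in APH and 70 in DMSO, and 63 in HU and 65 in H2O. Scaled to the library totals it was highest in APH, then in DMSO, with H2O and HU lower. The log2 ratio of APH to DMSO was 0.20 (-0.25 to 0.66), that of HU to H2O was -0.03 (-0.55 to 0.49) and that of H2O to DMSO was -0.22 (-0.73 to 0.28), and all 3 intervals included 0. The loop from the same HMGA1 and SMIM29 bin to RPS10, 170 kb away, had 65 counts in APH and 62 in DMSO, and 45 in HU and 44 in H2O. Its counts were split by solvent pair, with H2O over DMSO at -0.61 (-1.20 to -0.03).

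Over all 7 shared loops from HMGA1 to RPS10 the drugs stayed close to their solvents. The pooled log2 ratio was -0.06 (-0.31 to 0.19) for APH over DMSO and 0.07 (-0.20 to 0.33) for HU over H2O. RPS10, which encodes a protein of the small ribosomal subunit, had 56 counts in H2O and 85 in DMSO over 2 loops, a log2 ratio of -0.72 (-1.23 to -0.22). SMIM29 had 214 in H2O and 243 in DMSO over 6 loops, a log2 ratio of -0.30 (-0.57 to -0.03). Both RPS10 loops are among these 6, so the values of the 2 genes are not separate. No drug was given to the H2O and DMSO libraries.

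Left of HMGA1, 3 shared loops ran from chr6:34160001-34165000, a bin with no protein-coding gene and 8 loops in all. The strongest, of 30 kb, had 73 counts in APH and 39 in DMSO, and 56 in HU and 44 in H2O. Its log2 ratio was 0.58 (-0.00 to 1.18) for APH over DMSO and 0.36 (-0.23 to 0.97) for HU over H2O. Summed over the 3, the bin had 128 counts in APH and 77 in DMSO, and 102 in HU and 96 in H2O, with log2 ratios of 0.41 (-0.01 to 0.83) and 0.10 (-0.31 to 0.52).

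**Figure D4:**
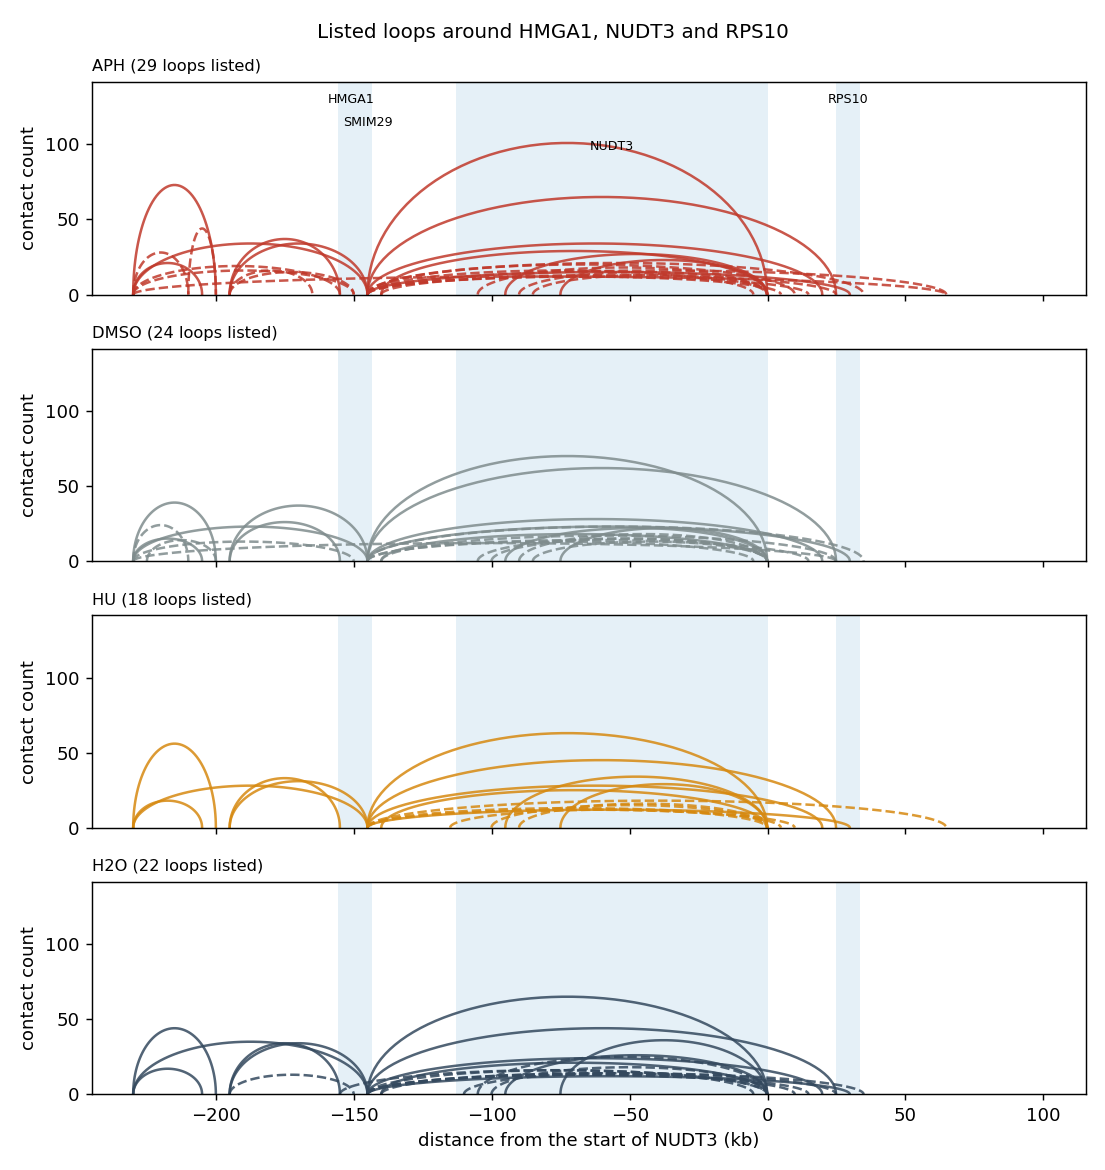
Listed loops around HMGA1, NUDT3 and RPS10 as arcs, in 1 panel per library (APH, DMSO, HU, H2O from top to bottom), against the distance in kb from the start of NUDT3, with the contact count as the height, solid arcs for loops listed in all 4 libraries, dashed arcs for the others and shading for genes. Arcs fan out to the right from the bin of HMGA1 and SMIM29 in every library, and the one to the NUDT3 start has 101, 70, 63 and 65 counts in that order.

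Few of the 30 shared loops passed 1.5-fold with an interval that excluded 1. Under APH, 2 loops were at least 1.5-fold higher than in DMSO with an interval that excluded 1, and 1 was lower, beside 2.28% higher and 2.42% lower among all 9529 shared loops. Under HU, 2 were higher than in H2O and 1 was lower, beside 3.41% and 2.96%. Between the 2 libraries without drug, H2O over DMSO, 1 was higher and 2 were lower, beside 1.13% and 1.08%, so the solvents gave as many such loops in the interval as either drug. Scaled counts of both drug libraries were above both solvents for 13 loops (43.3%), beside 19.9% of all shared loops, and below both for 4 (13.3%), beside 22.2%. Of the 22 shared loops under 100 kb, 11 (50%) were above and 4 (18.2%) were below, beside 27.6% and 15.6% of all shared loops of that span. Loops with a common anchor are counted singly here and are not separate observations.

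Of genes with at least 100 counts in a pair of libraries, IP6K3 was the only one of 10 with an interval above 1 for APH over DMSO (4.76% of all such genes were above and 5.16% below). IP6K3 and UQCC2 were above for HU over H2O, 2 of 9 (8.28% above and 8.24% below over all genes). For H2O over DMSO, RPS10 and SMIM29 were below, 2 of 8 (1.93% above and 2.76% below). Both RPS10 loops are also counted for SMIM29, and 1 loop is counted for both UQCC2 and IP6K3. Other genes of the interval also have loops in common, so genes are not separate observations. Over the 13 genes of the interval with a shared loop, the median log2 ratio was -0.03 for APH over DMSO, 0.04 for HU over H2O and -0.19 for H2O over DMSO. Over all 4831 genes it was -0.02, 0.00 and 0.00.

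Summed over the 30 shared loops, the interval had 1277 counts in APH and 927 in DMSO, and 1093 in HU and 1015 in H2O. Its pooled log2 ratio was 0.13 (0.01 to 0.26) for APH over DMSO, 0.12 (-0.00 to 0.25) for HU over H2O and 0.01 (-0.12 to 0.14) for H2O over DMSO. Of the 30 loops 22 were under 100 kb, and shared loops of that span over the whole genome were at 0.08 in both drug comparisons. Without the loops on IP6K3 the interval stood at 0.09 (-0.03 to 0.22) for APH over DMSO and 0.05 (-0.08 to 0.18) for HU over H2O, and scaling by all listed loops turned the ratio of APH to DMSO to -0.24. The interval for APH over DMSO also included 0 with the expected count divided out, at 0.02 (-0.10 to 0.15), and when set against all shared loops of its span classes, at 0.10 (-0.02 to 0.23). That for HU over H2O came to exclude 0 with the expected count divided out, at 0.18 (0.06 to 0.31).

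**Figure D5:**
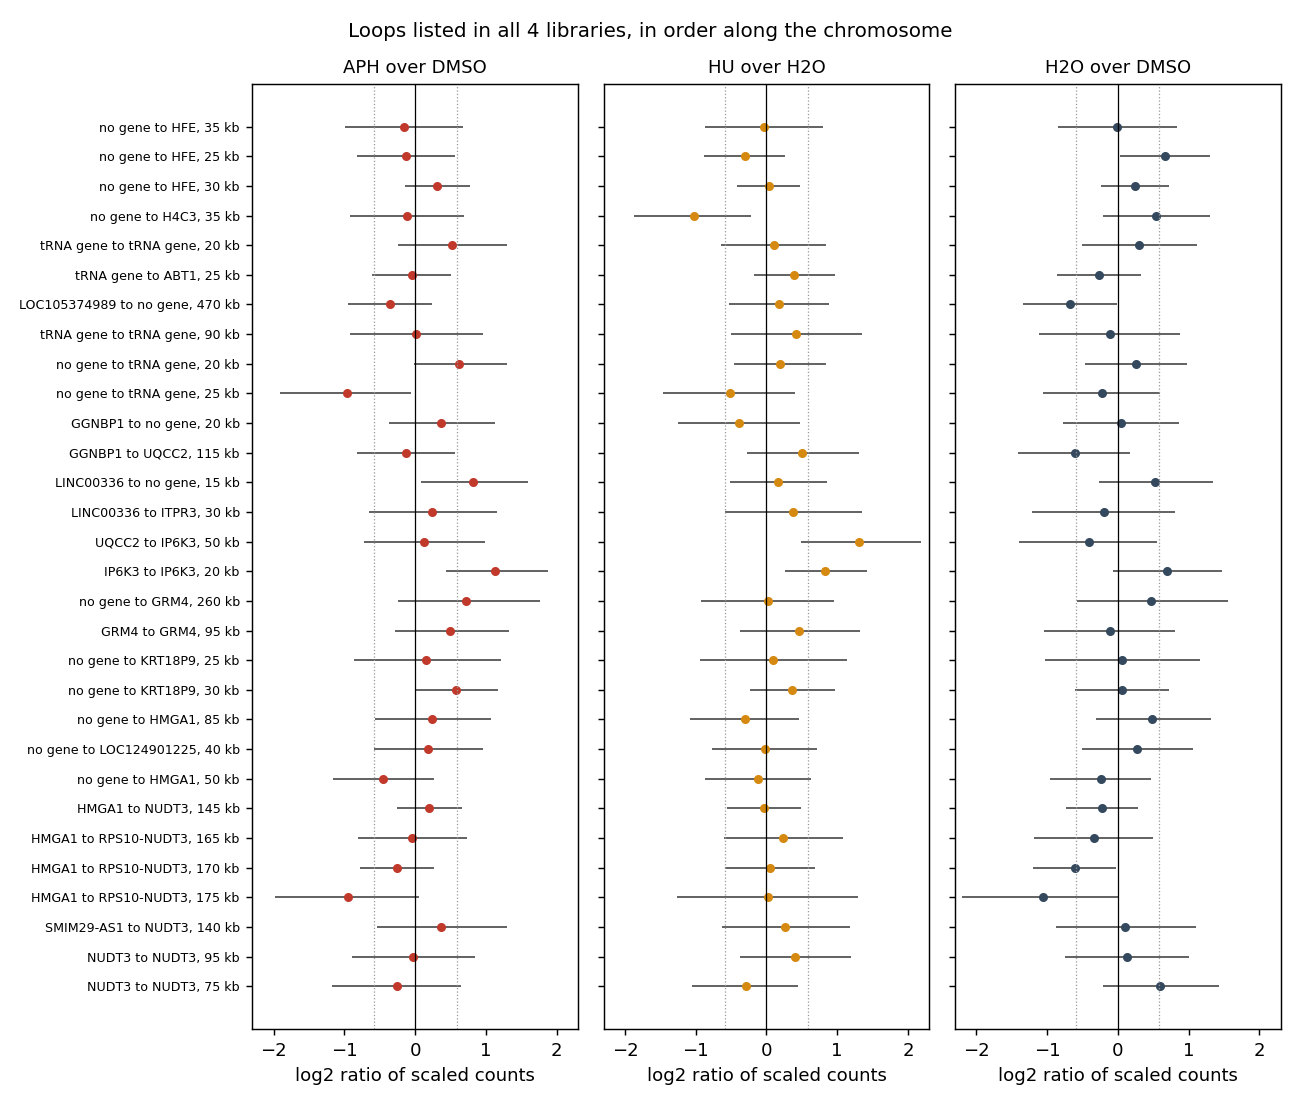
Log2 ratios of scaled counts (points) of the 30 shared loops, in order along the chromosome, for APH over DMSO, HU over H2O and H2O over DMSO, with 95% exact counting intervals as horizontal lines, 0 as a solid line and 1.5-fold in either direction as dotted lines. Most intervals cross 0, and the 20 kb IP6K3 loop is to the right of 0 in both drug comparisons, at 1.13 and 0.83.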

How the data were processed

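SMC1 HiChIP contacts were measured in 4 GM12878 libraries, 1 per group, and grouped by the treatment in the labels. The tools bcl2fastq 2.17 and MACS3 3.0.1 and the build hg38 are named per the submitters' processing notes. Neither aligner nor loop caller is given in the sources used here.

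The deposited loop lists have no header, so columns were read from their values. The deposited counts are whole numbers of contacts per pair of 5 kb bins, at least 12 and not normalized. A deposited signal that is not whole was taken as the authors' expected count, since every count was at least 2.00 times it. A deposited column of adjusted p-values was not used.

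Scaled counts divide by a library's total over the loops shared by all 4 libraries, 376948 in APH, 300320 in DMSO, 322048 in HU and 325634 in H2O. Ratios carry 95% exact conditional binomial intervals, with no pseudocount. A gene's loops have an anchor that overlaps it in the RefSeq table (GRCh38.p14), which gives promoters for 246 of the 277 protein-coding genes. Genes named beyond the lists had at least 100 counts and an interval excluding 1, up to 5 a side. Loops named had the 10 highest mean scaled counts, an interval excluding 1, or the longest span, and other loops were chosen after their values were seen. Members and lists were chosen with earlier results of these data known. Calculations used Python 3.11.15, numpy 2.4.6, pandas 2.3.3, scipy 1.17.1 and matplotlib 3.10.9 and were tested on simulated data. Alternatives were another scaling, at least 24 counts, division by the expected count, equal list lengths, ratios set against shared loops of like span, loops listed in both libraries of a pair, exchanged solvents and anchors near gene ends.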

Additional observations from a re-analysis of the deposited data

How the results depend on the processing

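With 1 library per group, leaving out a replicate was not possible. No paired analysis was possible because each group has 1 library. Of 72 log2 ratios of the interval and its subregions under another setting, 17 had the other sign, 2 of them where the ratio's own interval excluded 0. The interval came to include 0 in 10 and to exclude it in 8. Of 290 for single genes, 33 had the other sign, 8 came to include 0 and 19 to exclude it. Scaling by all listed loops shifted every log2 ratio by -0.38 for APH over DMSO, 0.05 for HU over H2O and -0.24 for H2O over DMSO. Under it APH over DMSO was -0.24 in the interval (reversed), -0.18 after KIFC1 (reversed) and -0.34 in the histone domain, with 6 loops called, against 3. H2O over DMSO was then -0.23 in the interval, -0.15 in the histone domain and -0.28 after KIFC1. With at least 24 counts in all libraries, 1 loop was called in each of the APH and HU comparisons, the share of loops under 100 kb was 80.6% in APH, 79.3% in HU and 74.1% in H2O, and 0.360% of the HU list lay in the interval. Divided by the expected count, 0 loops were called for HU over H2O, and H2O over DMSO was -0.15 in the interval and -0.21 in the histone domain. Without the loops on IP6K3, a setting chosen after seeing the data, 1 loop was called for HU over H2O. With lists of equal length, 64.6% of the H2O loops were under 100 kb. Fewer loops enter the stricter settings; the cause of the other changes was not tested. Depth limits single loops of 12 to 104 counts, 22 of the 30 shared ones having intervals that include 0 in all 3 comparisons.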
